A study of Mus musculus with 6 samples.

Results

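Progression through G1 is paced by the D-type cyclins, the kinases they activate and the proteins that hold those kinases in check, and 10 genes of this module were followed in MS5 stromal cells exposed to a MEK inhibitor. They encode cyclin D1, D2 and D3 (Ccnd1, Ccnd2, Ccnd3), the kinases CDK4 and CDK6 (Cdk4, Cdk6), the CIP/KIP inhibitors p21 and p27 (Cdkn1a, Cdkn1b) and 3 INK4 genes (Cdkn2a, Cdkn2b, Cdkn2c). Genes were taken through the table that pairs probe sets with symbols, and a probe set counted only when it named a single gene, which was so for 9 of the 10 genes (10 probe sets) among 19938 genes and 28853 probe sets on the array. The probe set of Cdkn1a is listed under 2 genes, so no value is given for it. That of Cdkn2a covers 2 RefSeq transcripts, so the INK4A and ARF products of this locus, which differ in their first exon, were not separated. Cdkn1b has 2 probe sets.

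MS5 is a mouse bone marrow stromal cell line. MEKi cultures received 1 μM PD184352, an inhibitor of the kinases MEK1 and MEK2, for 7 days, and diluent cultures (labelled control) received DMSO for the same time. There were 3 independent series of 1 MEKi and 1 diluent culture each, giving 6 Affymetrix arrays, with the log2 values normalized by the authors with RMA (background correction, quantile normalization and summary of the probes of a set). Since all arrays come from 1 cell line, the spread is that between cultures of this line. In the study each of the 3 experiments was also processed apart from the others. Differences between series can therefore include those of processing. Of 12 mesenchymal stromal markers, 9 lay at or above the median of all probe sets, including Col1a1, Pdgfrb and Cxcl12, whereas Thy1, Lum and Dcn lay below it. Of 9 measured leukocyte markers 8 lay below the median, Ptprc among them, and the mean of the list was 5.55 to 5.74 with MEKi and 5.53 to 5.81 with diluent. Cd68 was the exception, at 9.69, 8.96 and 10.67 with MEKi in series 1, 2 and 3, against 10.62, 9.10 and 11.41 with diluent. None of these markers passed the test, and the part of Cd68-expressing cells in the results was not tested.

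Mitogens act on this module in large part through cyclin D1. Signalling through RAS, RAF, MEK and ERK raises transcription of Ccnd1. Cyclin D bound to CDK4 or CDK6 phosphorylates the retinoblastoma protein, which releases E2F factors and opens S phase. INK4 proteins block CDK4 and CDK6 directly, while p21 and p27 block the cyclin E and CDK2 complexes that act next and also bind to cyclin D complexes. In the bone marrow, stromal cells of this kind support blood-forming and leukaemic cells, and MS5 layers are used for that purpose in culture.

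RefSeq start site regions (250 bases before to 50 after the start, GRCm38.p6) were found for 8 of the 10 genes, in 12 entries; Ccnd1 and Ccnd2 were not matched. The 3 printed here are those of Cdkn2b and Cdkn1b, the inhibitors with the largest positive and negative difference between conditions, and of Cdk4, which was added after the search because of its E-boxes. They lie at chr4:89310983-89311282 (minus strand), chr6:134920151-134920450 (plus strand) and chr10:127063285-127063584 (plus strand). Capitals mark every match, on either strand, to an AP-1 motif (TGANTCA), a CRE (TGACGTCA), an E-box (CACGTG), a GC box (GGGCGG) or 1 of 4 E2F motifs (TTTCCCGC, TTTCGCGC, TTTGCCGC, TTTGGCGC); matches may overlap, as the last GC boxes of Cdk4 do.
Cdkn2b: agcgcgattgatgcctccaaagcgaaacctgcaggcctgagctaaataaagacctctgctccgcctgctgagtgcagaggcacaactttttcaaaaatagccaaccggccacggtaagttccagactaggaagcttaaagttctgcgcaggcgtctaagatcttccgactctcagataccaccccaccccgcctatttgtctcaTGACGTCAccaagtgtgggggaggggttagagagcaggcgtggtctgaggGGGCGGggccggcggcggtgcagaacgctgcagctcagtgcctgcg
Cdkn1b: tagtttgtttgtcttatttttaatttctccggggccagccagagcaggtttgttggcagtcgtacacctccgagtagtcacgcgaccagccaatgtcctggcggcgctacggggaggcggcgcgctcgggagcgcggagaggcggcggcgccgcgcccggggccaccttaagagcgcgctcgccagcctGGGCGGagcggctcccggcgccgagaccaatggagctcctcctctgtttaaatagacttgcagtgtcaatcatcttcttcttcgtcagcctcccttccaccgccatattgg
Cdk4: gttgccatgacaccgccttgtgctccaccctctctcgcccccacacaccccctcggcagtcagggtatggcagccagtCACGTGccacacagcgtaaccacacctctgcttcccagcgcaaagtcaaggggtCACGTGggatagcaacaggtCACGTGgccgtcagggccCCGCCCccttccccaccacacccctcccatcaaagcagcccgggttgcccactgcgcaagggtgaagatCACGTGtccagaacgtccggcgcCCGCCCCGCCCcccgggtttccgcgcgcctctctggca
Cdkn2b holds 1 CRE and 1 GC box, Cdkn1b holds 1 GC box, and Cdk4 holds 4 E-boxes, the element bound by MYC and MAX among others, and 3 GC boxes. Among all 32851 regions of this length, 1.79% held a CRE, 2.26% an E2F motif, 7.15% an E-box and 35.7% a GC box. Of the 12 entries for the G1 genes, 9 held a GC box and 3 an E-box, 1 held an E2F motif (an entry of Cdkn2a) and 0 an AP-1 motif, which 7.81% of all regions held. A match is only a string of letters in this window.

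Among the D-type cyclins, Ccnd1 fell with MEKi in each series, whereas Ccnd2 and Ccnd3 did not pass the test. Ccnd1 was at 8.71, 8.23 and 7.73 on the log2 scale in MEKi cultures of series 1, 2 and 3, against 10.25, 9.53 and 8.84 in the diluent cultures of the same series. The conditions did not overlap, but only narrowly so, since the highest MEKi culture (series 1, 8.71) lay just below the lowest diluent culture (series 3, 8.84). MEKi arrays lay below all diluent arrays for 2.17% of all probe sets. Differences within series were −1.54, −1.31 and −1.11. The mean was 8.22 ± 0.49 with MEKi and 9.54 ± 0.70 with diluent (SD, n = 3 each). Both cultures of a series were high or low together. With series as a block, the log2 fold change was −1.32 (standard error 0.097, 95% interval −1.54 to −1.09, n = 3 series, adjusted p = 0.03 over all probe sets from limma). This is a level of 0.401 of that with diluent (interval 0.343 to 0.470), and the 8th lowest log2 fold change of the 28853 probe sets, of which 0.0555% fell at this threshold. In RNA of whole cultures, fewer cells that express a gene and less RNA per cell cannot be told apart.

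**Figure D1:**
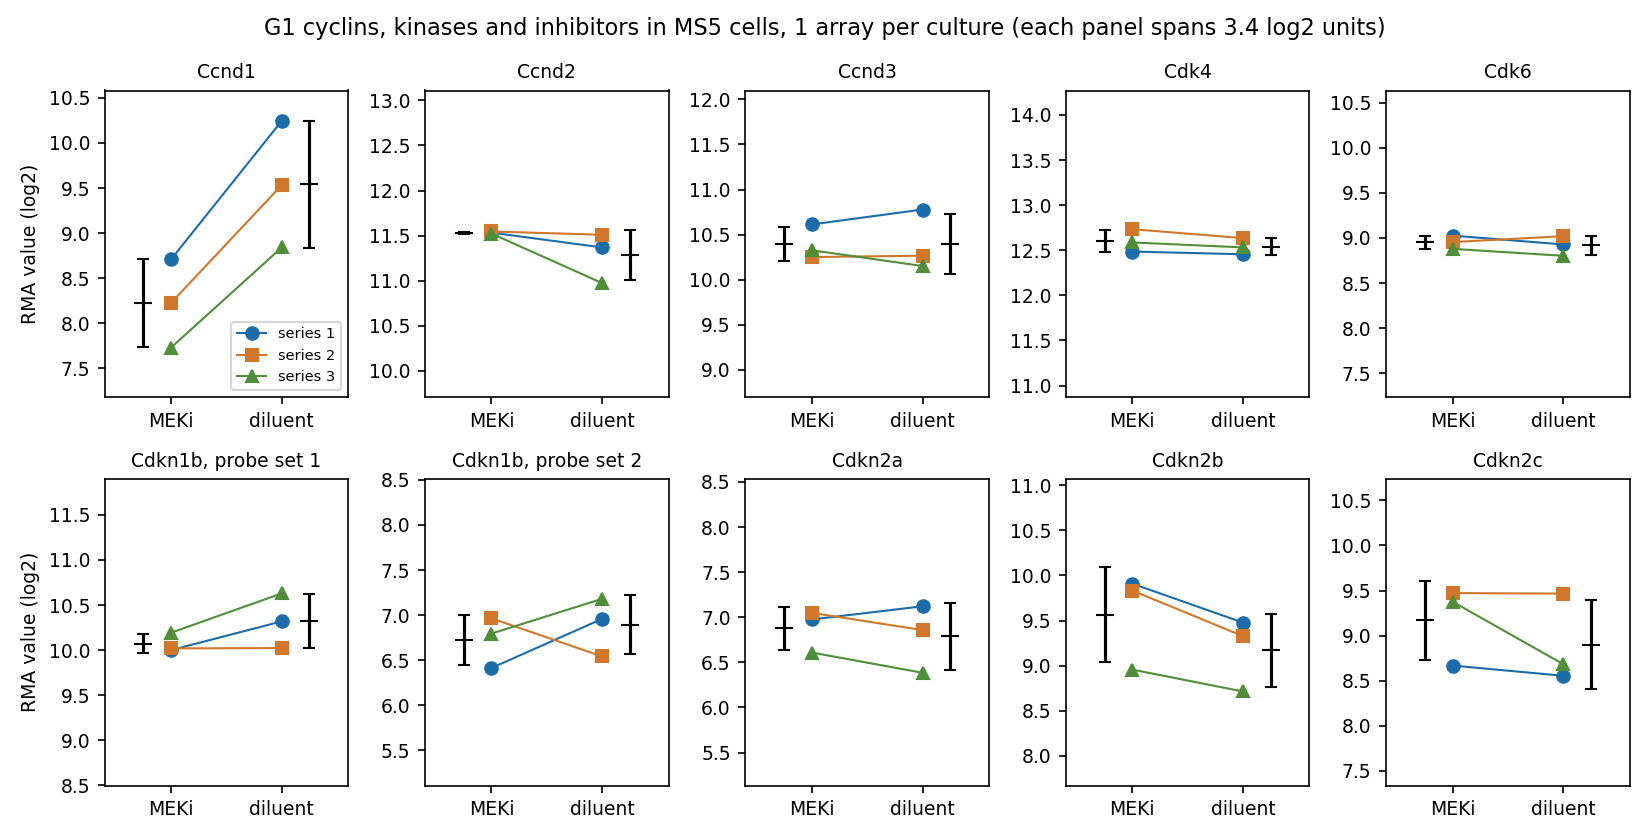
RMA values on the log2 scale (y axis, of the same span in each panel) of the 10 probe sets in MEKi and diluent cultures (x axis), with lines joining the cultures of a series and bars showing the mean ± SD of 3 cultures. All 3 lines of Ccnd1 run from a lower MEKi value to a higher diluent value, with differences of −1.54, −1.31 and −1.11, while the lines of the other genes are flatter or differ between series.

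The call of Ccnd1 rests on pairing the cultures by series. Without the block the adjusted p was 1 (unadjusted p = 0.0113 from limma), with series as a random block it was 0.377 (unadjusted p = 0.000901), and it was 0.131 without series 2 and 0.0508 once the arrays had been centred on their medians. By an ordinary analysis of variance per probe set its unadjusted p was 0.056 between the 2 conditions alone and 0.00859 with series as a factor. Over the 12 other fits with limma the log2 fold change lay between −1.42 (without series 3) and −1.21 (without series 1).

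**Figure D2:**
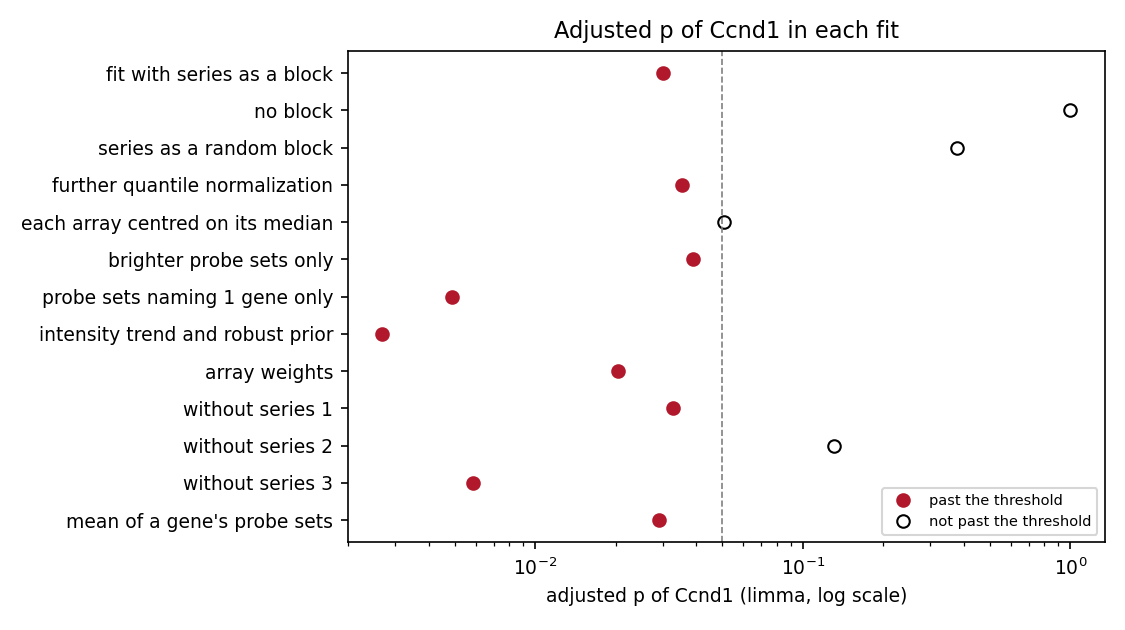
Adjusted p of Ccnd1 from limma (x axis, log scale) in the fit with series as a block and in 12 other fits (y axis); the dashed line is the threshold of 0.05. The gene passes in 9 of the 13 fits and misses in the fits without a fixed block, after centring and without series 2.

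Ccnd2, which encodes the D-type cyclin that can stand in for cyclin D1 in some cell types, was at 11.53, 11.55 and 11.52 in MEKi cultures, against 11.37, 11.51 and 10.97 in diluent cultures. The MEKi cultures were close to each other (SD 0.0115, against 0.278 among diluent cultures) and all 3 lay above the diluent cultures, although the lowest MEKi culture (series 3, 11.52) barely exceeded the highest diluent culture (series 2, 11.51). This held for 5.69% of all probe sets. The log2 fold change was 0.25 (standard error 0.108, 95% interval −0.0052 to 0.505, adjusted p = 0.518 from limma). The difference was 0.55 in series 3 and 0.16 and 0.036 in series 1 and 2, and without series 3 the log2 fold change was 0.10. Ccnd3, the third D-type cyclin, was at 10.61, 10.25 and 10.33 in MEKi cultures, against 10.78, 10.27 and 10.15 in diluent cultures. Its differences of −0.17, −0.015 and 0.17 had no common direction, and its log2 fold change was −0.0017 (standard error 0.088, 95% interval −0.21 to 0.206, adjusted p = 0.997 from limma). A change of Ccnd3 beyond 1.15 times or below 0.865 times its diluent level lies outside this interval.

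Cdk4 and Cdk6, the catalytic partners of the D-type cyclins, had the smallest differences after Ccnd3. Cdk4 was at 12.49, 12.73 and 12.59 in MEKi cultures, against 12.46, 12.63 and 12.53 in diluent cultures. Each MEKi culture lay slightly above its partner, yet the conditions overlapped, and the log2 fold change was 0.061 (standard error 0.072, 95% interval −0.11 to 0.232, adjusted p = 0.831 from limma). Cdk6 was at 9.03, 8.95 and 8.88 in MEKi cultures, against 8.93, 9.02 and 8.80 in diluent cultures. The differences of 0.098, −0.066 and 0.077 had no common direction. Its log2 fold change was 0.036 (standard error 0.077, adjusted p = 0.916 from limma) and turned to −0.012 after a further quantile normalization. The intervals allow a level with MEKi of 0.927 to 1.17 times that with diluent for Cdk4, and of 0.905 to 1.16 times for Cdk6.

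Of the INK4 inhibitors, none passed. Cdkn2b, which encodes p15, an inhibitor known to be induced by TGF-β, came nearest. It was at 9.91, 9.83 and 8.96 in MEKi cultures, against 9.48, 9.33 and 8.71 in diluent cultures. Each MEKi culture lay above its partner, by 0.43, 0.51 and 0.24, while the conditions overlapped because both cultures of series 3 were low. The log2 fold change was 0.39 (standard error 0.083, 95% interval 0.199 to 0.588, unadjusted p = 0.00193, adjusted p = 0.188 from limma), or 1.31 times the diluent level. In the other fits its adjusted p lay between 0.0925 (intensity trend and robust prior) and 1 (no block), and so never passed.

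Cdkn2c, which encodes p18, was at 8.67, 9.47 and 9.38 in MEKi cultures, against 8.56, 9.47 and 8.68 in diluent cultures. The difference was 0.69 in series 3, against 0.11 and 0.0058 in series 1 and 2. The log2 fold change was 0.27 (standard error 0.133, 95% interval −0.044 to 0.585, adjusted p = 0.574 from limma), and 0.059 without series 3. Cdkn2a was at 6.98, 7.05 and 6.61 in MEKi cultures, against 7.12, 6.86 and 6.38 in diluent cultures, with differences of −0.15, 0.19 and 0.22. Series 1 thus went the other way from series 2 and 3, and the log2 fold change was 0.090 (standard error 0.095, adjusted p = 0.808 from limma).

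Cdkn1b, which encodes p27, was the only measured gene besides Ccnd1 and Ccnd3 with a negative log2 fold change. Its brighter probe set was at 10.00, 10.02 and 10.19 in MEKi cultures, against 10.32, 10.02 and 10.63 in diluent cultures. The differences were −0.32, −0.0035 and −0.44, so that series 2 showed next to none, and the log2 fold change was −0.25 (standard error 0.099, 95% interval −0.49 to −0.020, unadjusted p = 0.037, adjusted p = 0.468 from limma). The second probe set was at 6.41, 6.96 and 6.80 in MEKi cultures, against 6.96, 6.54 and 7.18 in diluent cultures. Here series 2 went the other way (0.42, against −0.54 and −0.39 in series 1 and 3), and the log2 fold change was −0.17 (standard error 0.174, adjusted p = 0.799 from limma). The probe sets thus had the same sign in series 1 and 3 only.

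**Figure D3:**
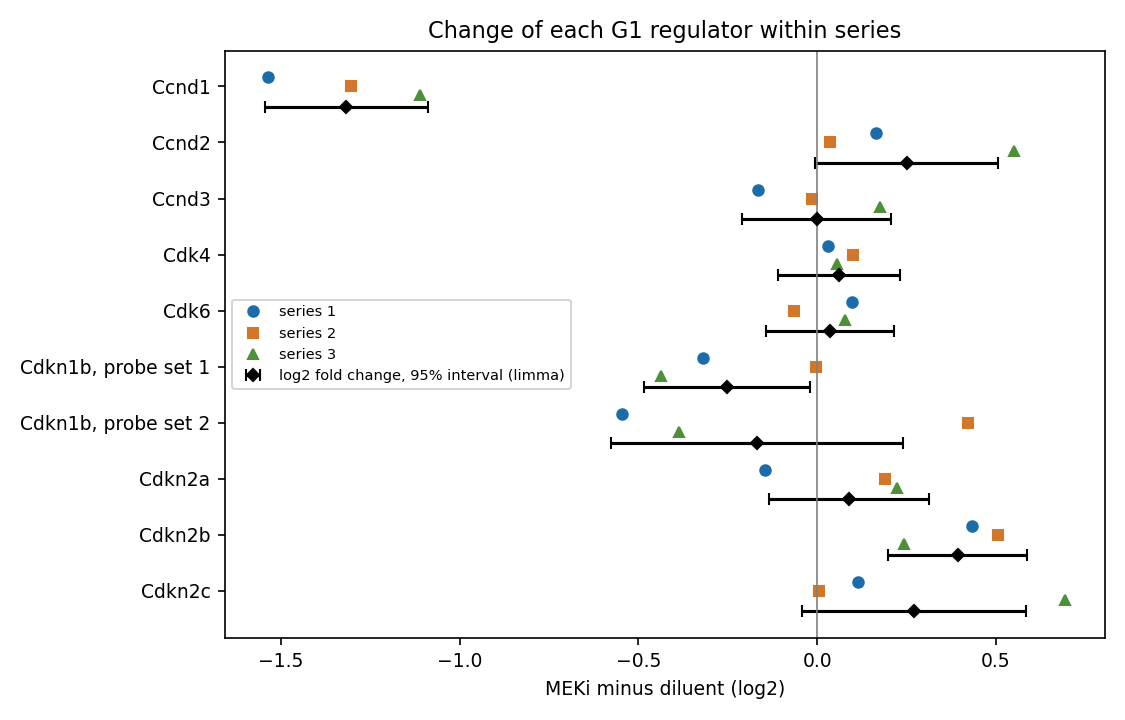
Log2 difference of MEKi from diluent (x axis) for each probe set of the G1 genes (y axis), with coloured points for the 3 series and a black diamond and bar for the log2 fold change and its 95% interval from limma. The interval of Ccnd1 (−1.54 to −1.09) lies apart from those of the other 9 probe sets.

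Counted over the 9 measured genes with 1 probe set each, 1 fell and 0 rose at an adjusted p under 0.05 from limma, against 0.0555% of all probe sets that fell and 0.104% that rose. At an unadjusted p under 0.05 the count was 2 lower (Ccnd1, Cdkn1b) and 1 higher (Cdkn2b), together 3 of 9, against 2.31% lower, 7.58% higher and 9.89% in either direction among all probe sets. Cdkn1b counts by its brighter probe set only (unadjusted p = 0.361 from limma for the second). With the probe sets of a gene averaged the count was 2. It was 1 without the block (907 of 28853 probe sets) and 5 with array weights (3337 of 28853). Ccnd1 was the only measured gene that differed at least 1.5-fold in every series, which 0.0624% of all probe sets did in the same direction. MEKi cultures lay below all diluent cultures for 1 gene (Ccnd1, 2.17% of all probe sets) and above them for 1 gene (Ccnd2, 5.69%). In all 3 series, 2 genes were lower (Ccnd1, Cdkn1b; 7.98% of all probe sets) and 4 were higher (Ccnd2, Cdk4, Cdkn2b, Cdkn2c; 23.8%). The median log2 fold change of the 9 genes was 0.061, against 0.037 over all probe sets. Without series 3 it was 0.022, against 0.047 over all probe sets. All 10 probe sets had a mean at or above the median of all probe sets, so none was lost to a filter on dim probe sets.

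The change of Ccnd1 was also set against that of each other gene within series, in 8 comparisons. The difference of Ccnd1 was the more negative one in every series of each comparison. The mean difference lay between −1.71 (against Cdkn2b, SD 0.319) and −1.06 (against Cdkn1b, SD 0.341), with −1.57 (SD 0.196) against Ccnd2 and −1.32 (SD 0.048) against Ccnd3. The exact two-sided permutation p was 0.25 each time (adjusted p = 0.25 over the 8 comparisons). This is the smallest that 3 series allow, so the comparisons could not pass a threshold of 0.05 and only describe the values.

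Ccnd1 also differed between series in the same direction in both conditions, being highest in series 1 and lowest in series 3. Over the 6 arrays, the genes whose values followed it most closely by Pearson's correlation were Gask1b (r = 0.991), Gm6598 (0.985), Pramel7 (0.977), 2410124H12Rik (0.976) and Pou3f4 (0.972). Those that ran most opposite to it were Xkr6 (−0.989), Prok1 (−0.987), Neb (−0.986), Sccpdh (−0.985) and BC002059 (−0.982). Gask1b was at 9.38, 9.18 and 9.08 in MEKi cultures, against 9.74, 9.51 and 9.37 in diluent cultures, or −0.33 as log2 fold change (adjusted p = 0.215 from limma). The other 9 had smaller changes, between −0.16 and 0.29, and none of the 10 passed. Pramel7, 2410124H12Rik, Pou3f4, Xkr6, Prok1, Neb and BC002059 lay below the array medians (6.29 to 6.38) in every culture. For example, the mean of Pramel7 was 4.47 with MEKi and 4.59 with diluent. The 10 genes were picked as the extremes among all genes named by a probe set. These correlations describe 6 arrays that share 2 conditions and 3 series, and none of the other G1 genes was among the 10, their correlations with Ccnd1 lying between −0.49 (Cdkn2c) and 0.53 (Ccnd3).

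Of 19 transcriptional regulators that are known to act on Ccnd1 in one cell type or another, 1 fell, 0 rose and 18 did not pass, against 0.0555% of all probe sets that fell and 0.104% that rose. At an unadjusted p under 0.05, 5 were lower (Fosl1, Egr1, Klf5, Junb and Fos) and 1 higher (Tcf7l2), against 2.31% and 7.58% of all probe sets. The median was −0.13, against 0.037 over all probe sets. The gene that fell past the threshold was Fosl1, which encodes the AP-1 subunit FRA1. It was at 8.37, 7.53 and 8.51 in MEKi cultures, against 9.27, 8.38 and 9.19 in diluent cultures, with differences of −0.91, −0.84 and −0.67. The conditions overlapped, because the MEKi culture of series 3 lay above the diluent culture of series 2, while each MEKi culture lay below its own partner. The log2 fold change was −0.81 (standard error 0.081, adjusted p = 0.0319 from limma), and the call was lost without series 1, without series 2, without a fixed block and after centring. Egr1, an early growth response factor, was at 9.43, 9.23 and 9.37 in MEKi cultures, against 10.21, 9.65 and 10.13 in diluent cultures, with no overlap (log2 fold change −0.65, adjusted p = 0.0906 from limma). Fos, which encodes another AP-1 subunit, was at 6.53, 6.09 and 6.27 in MEKi cultures, against 7.86, 6.16 and 6.74 in diluent cultures. Most of these values lay near the array medians (6.29 to 6.38), and the diluent culture of series 1 stood highest. The differences of Fos were −1.33, −0.063 and −0.47 (log2 fold change −0.62, adjusted p = 0.398 from limma). Those of Klf5, a Krüppel-like factor, were −0.32, −0.69 and −0.41 (log2 fold change −0.47, adjusted p = 0.183 from limma). Klf5 did not overlap between conditions either. All MEKi arrays lay below all diluent arrays, as for Egr1 and Klf5, for 2.17% of all probe sets. In this list 9 of 19 genes were lower and 2 higher in all 3 series, against 7.98% and 23.8% of all probe sets.

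A list of 10 further G1/S genes held mostly cyclins, kinases and inhibitors, along with Cdc25a, Cdc37 and Mnat1, which are none of these. Of the 10 genes, 0 passed, with log2 fold changes from −0.13 to 0.23. An unadjusted p under 0.05 was seen for 0, against 9.89% of all probe sets in either direction. The median of the list was 0.12, against 0.037 over all probe sets. Without series 2 it was 0.066, against 0.0043 over all probe sets. For Ccne1, which encodes cyclin E1, the log2 fold change was 0.23 (adjusted p = 0.58 from limma), with −0.10 in series 2 against 0.32 and 0.48 in series 1 and 3. Cdk2, the kinase of cyclin E, had differences of 0.14, 0.12 and 0.13 (log2 fold change 0.13, adjusted p = 0.615). Of Cdk7 and Mnat1, subunits of the kinase complex that activates CDKs, the log2 fold changes were 0.17 and 0.15 (adjusted p = 0.549 and 0.598 from limma).

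Of 13 pocket proteins and E2F-DP factors, 0 passed (range −0.11 to 0.26). The median was 0.093, against 0.037 over all probe sets. Without series 2 it was 0.060, against 0.0043 over all probe sets. In this list 2 genes (Rbl1 and E2f6) had an unadjusted p under 0.05, both higher, against 7.58% of all probe sets. Rbl1, which encodes the pocket protein p107, was at 8.73, 8.57 and 8.54 in MEKi cultures, against 8.46, 8.33 and 8.28 in diluent cultures. All MEKi arrays lay above all diluent arrays, as for 5.69% of all probe sets. The differences of 0.27, 0.24 and 0.26 were close to each other, yet the adjusted p was 0.324 from limma (log2 fold change 0.26, standard error 0.072). E2f6, a repressive E2F, and E2f5 had log2 fold changes of 0.25 and 0.21, and Rb1, which encodes the retinoblastoma protein, of 0.14 (adjusted p = 0.446, 0.539 and 0.582 from limma).

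Of 23 measured E2F targets of G1/S and S phase (24 listed), 0 passed, and 2 had an unadjusted p under 0.05, both lower, against 2.31% of all probe sets lower and 9.89% in either direction. These were Cdt1, a replication licensing factor, with differences of −0.55, −0.14 and −0.35 (log2 fold change −0.35, adjusted p = 0.319 from limma), and Chaf1b, a chromatin assembly factor subunit, with −0.29, −0.30 and −0.21 (log2 fold change −0.27, adjusted p = 0.316). Uhrf1, which helps to maintain DNA methylation, had a log2 fold change of −0.17 and Rrm1, a ribonucleotide reductase subunit, of 0.14. The range of the list was −0.35 to 0.14. Its median was 0.032, against 0.037 over all probe sets, but it had no stable sign, being 0.081 without series 2, −0.029 without series 3 and −0.018 after a further quantile normalization.

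**Figure D4:**
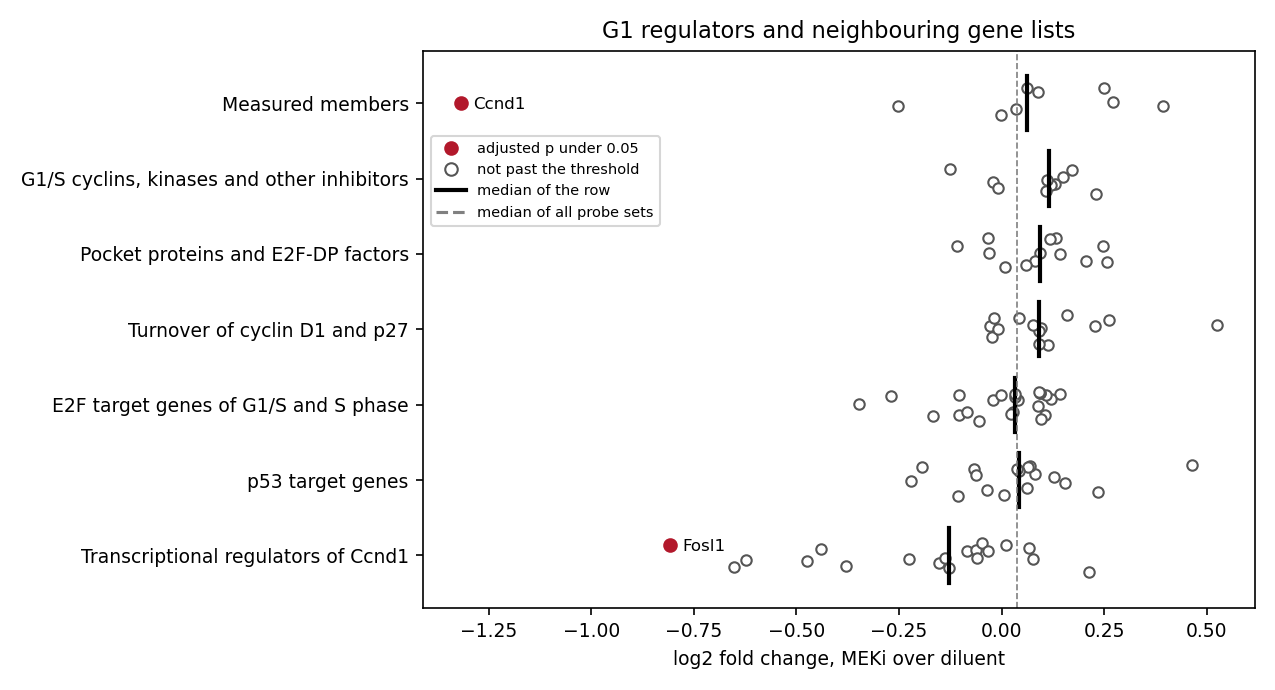
Log2 fold change of MEKi over diluent (x axis) for the measured G1 genes and the 6 neighbouring lists (y axis), each point a gene, filled where the adjusted p from limma was under 0.05; thick bars are medians and the dashed line is the median of all probe sets (0.037). Only Ccnd1 and Fosl1 are filled, and the list of Ccnd1 regulators has the lowest median (−0.13).

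Cyclin D1 and p27 are also controlled by breakdown of the protein, which arrays of mRNA do not see. Of 14 genes listed under that process, 0 passed (range −0.027 to 0.525). Whether each listed gene, Rnf187 among them, acts in it was not tested. The median of the list was 0.092, against 0.037 over all probe sets. An unadjusted p under 0.05 was seen for 3 (Cryab, Fbxo4 and Usp2), all higher, against 7.58% of all probe sets. Cryab, a small heat shock protein that works with FBXO4 on cyclin D1, was at 11.55, 10.82 and 10.58 in MEKi cultures, against 10.96, 10.14 and 10.28 in diluent cultures (log2 fold change 0.52, standard error 0.094, adjusted p = 0.162 from limma). It passed only with an intensity trend and a robust prior, of the fits tried. Fbxo4, an F-box protein, had a log2 fold change of 0.26, Usp2, a ubiquitin protease that acts on cyclin D1, of 0.23, and Skp1, a subunit of SCF ligases, of 0.16 (adjusted p = 0.468, 0.41 and 0.556 from limma).

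For Cdkn1a itself no value is given, but other p53 targets were read as a list. Of 17 measured (18 listed), 0 passed. An unadjusted p under 0.05 was seen for 2 (Fas and Ei24), both higher, against 7.58% of all probe sets higher and 9.89% in either direction. The median was 0.043, against 0.037 over all probe sets. It had no stable sign, being −0.023 without series 2 and 0.114 without series 3. Fas, a death receptor, was at 7.25, 7.21 and 6.71 in MEKi cultures, against 6.77, 6.63 and 6.38 in diluent cultures (log2 fold change 0.46, standard error 0.081, adjusted p = 0.147 from limma). Ei24 had a log2 fold change of 0.23, while Btg2, an antiproliferative factor, and Mdm2, the ubiquitin ligase that acts on p53, had −0.22 and −0.19, each with series 2 in the opposite direction to series 1 and 3.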

How the data were processed

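RNA of 6 MS5 cultures (3 MEKi, 3 diluent, 3 series) was hybridized to Affymetrix mouse Gene 1.0 ST arrays. The authors normalized the raw intensities with RMA and deposited log2 values of 28853 probe sets (2.25 to 14.07, array medians 6.29 to 6.38); quality controls were done in Partek, and versions and genome build are not given in the sources used here. The values were used unfiltered, and 0 columns were left out. Probe sets naming 1 gene (21789), several (1621) or none listed (5443) were all tested; a gene was read from its brightest probe set. The members, lists and tests were chosen with earlier results of these data known.

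MEKi was compared with diluent with limma 3.58.1 in R 4.3.3 (lmFit, eBayes), with series as a block. The block was used because the study gives 1 culture of each condition per independent experiment. Deviations from group means correlated by 0.81, 0.59 and 0.62 within series, against −0.60 to 0.21 otherwise. The deviations of a group sum to 0 for each probe set. Positive correlations within series therefore force negative ones elsewhere on average, and part of this contrast is built in. The Benjamini-Hochberg adjustment covered every probe set, and 0.05 was the threshold. There were 2 residual degrees of freedom and 5.17 from the prior. Apart from markers, the genes given with values are all members and the 10 genes most alike or opposite to Ccnd1. Up to 4 genes of each list were added (calls first, then the largest absolute log2 fold changes). RefSeq promoters (GRCm38.p6) were searched in Python 3.11.15, and figures drawn with matplotlib 3.10.9.

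Alternatives were no block, a random block, further quantile normalization, centring, brighter probe sets, only probe sets with a single gene, an intensity trend with robust prior, array weights, each series left out, an ordinary analysis of variance of the 2 groups (unadjusted p at most 0.05 and 1.5-fold), and averaging the probe sets of a gene. The methods name an analysis of variance per gene with Tukey's tests, at p at most 0.05% and 1.5-fold, and do not say whether experiment was a factor; that limit was added after seeing the data, with and without series as a factor. The number of arrays limits the precision.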

Additional observations from a re-analysis of the deposited data

How the results depend on the processing

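Ccnd1 kept its direction in all 12 other fits and its call in 8. The number of measured G1 genes past the threshold was 1, and 0 without the replicate block, when series was a random block, after median centring and by a 2-group analysis of variance at an unadjusted p of at most 0.05; at the methods' limit of 0.05% and 1.5-fold, chosen after seeing the data, it was 0 both with 2 groups and with series as a factor (replicate block); leaving out each series in turn it was 0 to 1. Over all probe sets the count of 46 (30 higher, 16 lower) became 0 without the replicate block, if the block was random or after centring, 15 (4 higher, 11 lower) after a further quantile normalization, 25 among brighter probe sets and 115 with an intensity trend and a robust prior, and 0 to 37 leaving out each series in turn. It was 44 by the 2-group analysis of variance at 0.05, and at the methods' limit 0 with 2 groups and 2 with series as a factor (replicate block). These counts are of probe sets and do not repeat the selection of the study, which also crossed its experiments and counts genes. At an unadjusted p under 0.05, limma counted 907 probe sets without the block, 2321 with a random block, 2780 after centring and 3063 without series 2. The count of Ccnd1 regulators was 1 (Fosl1). It was 0 under the random block, in the absence of any block and after centring, and 2 (Fosl1 and Egr1) with probe sets naming 1 gene, with array weights or with the intensity trend; leaving out each series it was 0 to 1. The turnover list had 1 call (Cryab) with the intensity trend. Values near 0 changed sign: Cdk6 was −0.012 after a further quantile normalization, and Ccnd3 was 0.0079 with array weights and between −0.090 and 0.080 leaving out each series in turn. The medians of 2 lists changed sign: that of E2F targets (0.032) was between −0.029 and 0.081 leaving out each series and −0.018 after quantile normalization, and that of p53 targets (0.043) was between −0.023 and 0.114 leaving out each series. After quantile normalization the medians of the pocket protein and turnover lists were 0.040 and 0.043, with 0.00074 over all probe sets. The cause of these changes was not tested.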
